A study of Homo sapiens with 9 samples.

Results

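The size-matched input (SMI) of an eCLIP experiment was examined across genes in Huh7 cells. Of the 9 libraries of the series, the 3 SMI libraries were taken by their labels, and counts were summed for each gene separately over its exons and over its introns. The study asked which RNAs the mitochondrial enzyme MDH2 binds, and its other 6 libraries, 3 of MDH2 IP and 3 of IgG IP, were not used here. Huh7 is an established human line derived from a hepatocellular carcinoma. The cells of all 3 SMI libraries were grown in low-glucose DMEM with serum, glutamine and antibiotics, irradiated with UV light and lysed, and the lysate was sonicated and treated with RNase I. A small part of that lysate, set aside before any antibody was added, became the SMI, and its libraries were amplified with 9 PCR cycles. The SMI has no antibody step and no comparison group of its own, so every level below is a level within these 3 libraries.

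In eCLIP, proteins are joined to the RNA they touch by UV light, the complexes are separated by size, and the place where reverse transcription stopped marks the cross-linked base. The SMI passes through the same gel and library steps as the IP and holds the RNA fragments that lie with all proteins of that size range. Introns are present in pre-mRNA before splicing and are then degraded in the nucleus, so intron counts come mainly from nuclear RNA and exon counts from nuclear and cytoplasmic RNA together. The small nuclear RNAs U1, U2, U4, U5 and U6 are the RNA core of the spliceosome, which removes introns, while 7SL is the RNA of the signal recognition particle, which docks ribosomes that make secreted proteins at the endoplasmic reticulum.

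Window counts summed to 8311027, 9354014 and 9788461 in SMI replicates 1, 2 and 3. Each window covers 50 nt and begins 20 nt after the one before it, so a cross-linked position enters up to 3 windows. In windows that do not overlap, the totals were 2863617, 3238991 and 3376762, and 0 counts in such a library allow up to 1.05, 0.926 and 0.888 CPM (counts scaled to a library total of 1000000), a limit that covers counting error only. The labels number the replicates and do not say that they came from separate cultures, so errors and p-values measure the spread between these libraries. Across genes, the Pearson correlation of log2 exon CPM was 0.967 between replicates 1 and 2, 0.956 between 1 and 3 and 0.925 between 2 and 3. Replicate 3 stood apart from the others in a set of genes that is described below.

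Small RNAs that were among the most cross-linked in the SMI are printed first, since they show where on an RNA the counts lay. Each sequence is the RNA in 5′ to 3′ direction in DNA letters from the GRCh38 reference genome, with the window that held the most counts in capitals. Pairs of near-identical copies are shown together because reads with up to 10 alignments were kept, so counts can be divided between copies. RNU4-2 and RNU4-1 encode U4, which keeps U6 inactive until the spliceosome is activated. RNU2-2P is a U2 gene, RNVU1-7 a variant of U1, and SNORA73B and SNORA73A are H/ACA small nucleolar RNAs.
RNU4-2: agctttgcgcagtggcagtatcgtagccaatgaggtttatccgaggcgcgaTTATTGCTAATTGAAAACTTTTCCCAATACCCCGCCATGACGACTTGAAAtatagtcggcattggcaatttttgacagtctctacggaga
RNU4-1: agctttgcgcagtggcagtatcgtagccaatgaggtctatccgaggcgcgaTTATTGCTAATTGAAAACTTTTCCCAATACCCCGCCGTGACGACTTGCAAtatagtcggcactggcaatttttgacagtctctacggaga
RNU2-2P: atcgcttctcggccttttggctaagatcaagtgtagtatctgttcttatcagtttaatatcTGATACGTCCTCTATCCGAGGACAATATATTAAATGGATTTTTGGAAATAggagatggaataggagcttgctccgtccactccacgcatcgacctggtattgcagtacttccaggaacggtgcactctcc
RNVU1-7: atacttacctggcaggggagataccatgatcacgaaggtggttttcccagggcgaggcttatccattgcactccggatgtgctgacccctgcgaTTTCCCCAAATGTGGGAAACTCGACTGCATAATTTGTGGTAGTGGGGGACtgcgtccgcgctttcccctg
SNORA73B: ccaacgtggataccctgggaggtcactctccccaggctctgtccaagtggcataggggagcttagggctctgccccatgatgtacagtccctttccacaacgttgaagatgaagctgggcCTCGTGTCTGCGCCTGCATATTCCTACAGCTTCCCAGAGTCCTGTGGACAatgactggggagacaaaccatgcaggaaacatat
SNORA73A: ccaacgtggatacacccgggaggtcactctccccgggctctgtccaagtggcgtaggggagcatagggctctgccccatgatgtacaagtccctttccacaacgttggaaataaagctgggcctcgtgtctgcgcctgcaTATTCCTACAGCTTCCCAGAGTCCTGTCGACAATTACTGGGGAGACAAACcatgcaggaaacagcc

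RNU4-2 lies at chr12:120291763-120291903 on the - strand and RNU4-1 at chr12:120293097-120293237 (-), RNU2-2P at chr11:62841619-62841809 (-) and RNVU1-7 at chr1:148038753-148038916 (-). SNORA73B lies at chr1:28508559-28508762 (+) and SNORA73A at chr1:28507366-28507571 (+).

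The highest window of RNU5B-1, RNU4-2, RNU2-2P, RNVU1-7 and RN7SL1 was the same one in all 3 libraries. RNU5B-1 is a gene of U5, which aligns the exons to be joined, and had 13052, 15701 and 12736 counts in its window from base 61 to base 110, which was 31.0% ± 0.259 (SD, n = 3) of its window counts. Its first window, from base 1 to base 50, held 3516, 4530 and 3696 counts. The 3′ part of this U5 RNA therefore led in every library, while RNU5A-1, which differs from it at 7 positions over 116 bases, had its highest window at bases 41 to 90 with 28.6% ± 0.538 and its first window held nearly as many, 2661, 3382 and 2613 counts against 2799, 3919 and 2839. RNU5E-1, 15 changes away from RNU5B-1 over 120 bases, had 26.6% of its counts at bases 61 to 110.

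Both U4 genes had their highest window at bases 52 to 101, with 35.6% of the counts of RNU4-2 and 35.8% of those of RNU4-1. These genes differ by 4 changes over 141 bases, and the division of reads between them was not tested. RNU2-2P had 35.7% of its counts at bases 62 to 111 and few near its 3′ end, where the last window had 22, 24 and 16 counts. RNVU1-7 had 29.6% at bases 95 to 144. In RN7SL1, the window at bases 221 to 270 held 2872, 2513 and 2784 counts, 29.2% of the total, while the windows from base 41 to base 130 had 0 counts in every library. RN7SL1 and RN7SL2 differ by 5 changes over 300 bases and belong to a large family of repeated sequences.

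Introns held about as many counts as exons. The share of window counts in introns was 56.1%, 50.2% and 54.3% in replicates 1, 2 and 3, or 53.5% ± 3.01 (SD, n = 3), with the lowest value in replicate 2. Introns of protein-coding genes alone held 48.4% ± 2.87 of all counts and their exons 34.5% ± 1.72. Long noncoding RNAs (lncRNAs) held 4.11% ± 0.115 in introns and 1.89% ± 0.187 in exons. Where an RNA gene lies inside another gene on the same strand, its windows are listed under both genes. Among genes that overlap no other gene on their strand, introns held 45.7% of the counts.

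The remaining counts came from abundant noncoding RNAs. RNAs encoded by mitochondrial DNA held 5.14% ± 0.838 of the counts, of which 4.21% were ribosomal RNA, 0.888% mRNA and 0.0431% tRNA. Spliceosomal and related small nuclear RNAs held 2.19% ± 0.281, and 7SL, 7SK, Y, vault, RNase P and RNase MRP RNAs together 1.01% ± 0.150. Small nucleolar and Cajal body RNAs held 0.634%, nuclear tRNAs 0.198%, and nuclear rRNA genes and their pseudogenes 0.111%. Replicate 2 was the highest of the 3 libraries in mitochondrial RNA, at 5.86% against 4.22% and 5.34%.

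**Figure D1:**
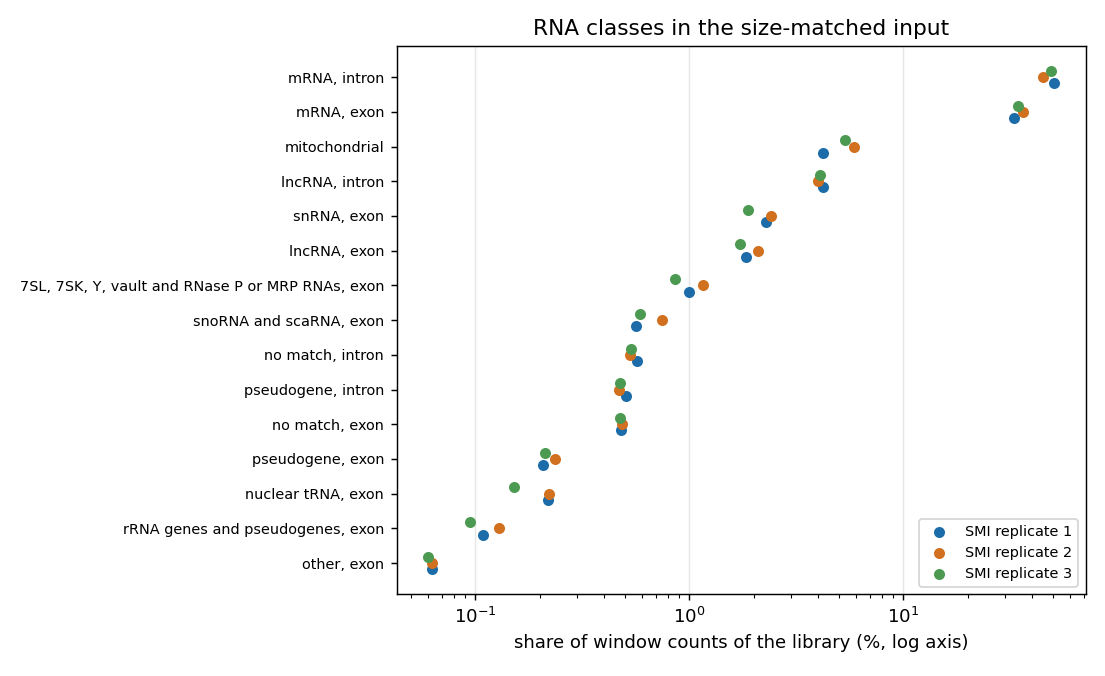
Share of the window counts of a library held by each RNA class, split into exons and introns, on a log axis in percent, with 1 point for each SMI replicate. Introns and exons of mRNAs lead with means of 48.4% and 34.5%, and the points of the 3 libraries lie close together for both. They lie further apart for mitochondrial RNA, at 4.22%, 5.86% and 5.34%, and for nuclear tRNAs, at 0.219%, 0.222% and 0.151% in replicates 1, 2 and 3.

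The 2 mitochondrial ribosomal RNAs led all exon counts. MT-RNR2, the large subunit rRNA, had 27417, 38329 and 36130 CPM in replicates 1, 2 and 3, and MT-RNR1, the small subunit rRNA, had 6746, 9584 and 8122. Both were lowest in replicate 1. Among mitochondrial mRNAs, MT-ND4, a subunit of complex I, had 1917 ± 215 CPM and MT-CO1, a subunit of complex IV, 1329 ± 237. Of 37 mitochondrial genes, 25 were detected. These RNAs lack introns and are made and kept inside the mitochondrion.

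After them came nuclear noncoding RNAs. RNU5B-1 had 5019, 5448 and 4213 exon CPM, 7SK 4196, 5777 and 3486, and MALAT1 3822, 4879 and 3698. All were highest in replicate 2 and lowest in replicate 3. 7SK RNA holds the elongation factor P-TEFb inactive, and MALAT1 is a long RNA of nuclear speckles. U1 and U4 followed with 3002 ± 352 CPM for RNVU1-7, 2799 ± 332 for RNU4-2 and 2255 ± 306 for RNU4-1. RMRP, the RNA of RNase MRP, had 1651 ± 87.9, and RPPH1, the RNA of RNase P, 1120 ± 169. Of the numbered tRNA identifiers, the one with the most counts had 111 ± 48.6 CPM, and no tRNA name is given with the number.

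Of 22 spliceosomal RNA genes listed, 20 were in the table and 11 had at least 30 exon counts in every library, the threshold for detection used throughout. RNU12, RNU11, RNU4ATAC and RNU6ATAC, which serve the minor spliceosome, were among them. The canonical U1 genes RNU1-1 and RNU1-2 were at 0 in all 3 libraries, and RNU1-3 had 0, 0 and 2 counts. The U6 genes RNU6-1, RNU6-2, RNU6-7, RNU6-8 and RNU6-9 had at most 14 counts in any library. The authors discarded reads with more than 10 alignments, and the part of this filter in the low counts of these multi-copy genes was not tested.

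Some mRNA genes shared their windows with a small RNA. WDR74 had 2450, 2931 and 2167 exon CPM, and RNU2-2P, whose windows lie within the same annotated exon, had 2304, 2760 and 1990. RCC1 introns had 1921, 2582 and 2222 CPM, of which its SNORA73A and SNORA73B together had 1456, 2080 and 1711. In both genes, host gene and small RNA were highest in the same library, replicate 2, and the same windows are counted in both.

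APOB was the mRNA with the most exon counts outside such overlaps. It encodes the structural protein of very low density lipoprotein, and had 3178, 3740 and 2892 CPM, highest in replicate 2 and lowest in replicate 3. Per length of exon it had 221 ± 29.1 CPM per kb, rank 10 of 9332 mRNAs. FTL and FTH1, the light and heavy chains of the iron store ferritin, had 921 ± 128 and 289 ± 38.2 CPM per kb, ranks 1 and 6. APOA2, an apolipoprotein of high density lipoprotein, was at rank 2 with 624 ± 170. WDR74 was at rank 3 with the U2 windows described above, and RPS12, ACTB and GAPDH were at ranks 4, 5 and 7. AFP, a fetal plasma protein and a marker of hepatoma, had 230 ± 29.1 CPM per kb and was at rank 8. The elongation factor EEF2 was at rank 9 with 226 ± 75.7. With errors of this size, ranks 8 to 10 did not differ beyond the spread between libraries.

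The labelled cell type was checked against marker genes. Of 24 plasma protein genes, 22 were detected, and only HP (haptoglobin) and PLG (plasminogen) had fewer than 30 counts in a library. The median of those detected was 33.8 CPM per kb of exon, beside 3.75 for all genes detected with a known length, whose quartiles were 1.95 and 7.46. AFP, ALB, FN1 and TF had the most exon counts of the list. ALB, serum albumin, had 431, 597 and 372 CPM, which is 136 ± 34.1 per kb. RBP4, the retinol carrier, had 176 ± 10.6 per kb, and AHSG, fetuin, 136 ± 50.2. Other members were far lower, with SERPINA1 at 8.59 ± 2.47, HPX at 5.21 ± 0.463 and SERPINC1 at 4.07 ± 2.25 per kb. CP was the lowest detected, at 1.62 ± 0.0722, below the lower quartile of all genes. The summed level of the list was 4802, 6223 and 4140 CPM, and replicate 2 was the highest library for 19 of the 22 genes, beside 46.2% of all genes detected. Replicate 3 was the lowest for 17 of the 22, beside 37.2%. In a bulk lysate, fewer cells with an RNA and less of that RNA per cell cannot be told apart.

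Of 23 markers of fibroblasts, endothelium, blood cells and neurons, 21 were in the table and 1 was detected, LUM (lumican), with 58, 106 and 120 exon counts. PTPRC, the common leukocyte antigen, had 0, 3 and 0 counts, and KDR, CSF1R, RBFOX3, GFAP and DCN were at 0 in all 3 libraries. PECAM1, of endothelium, had 25, 39 and 43 counts and CD68, of macrophages, 29, 38 and 29, just under the threshold in their lowest library. The summed level of the list was 24.1, 29.0 and 26.9 CPM.

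The liver genes differed by function. Of 14 apolipoprotein genes, 13 were in the table and 8 were detected, with a median of 57.0 CPM per kb. APOE and APOA1, of remnant and high density lipoproteins, had 166 ± 59.1 and 86.6 ± 7.70 CPM. Of 19 transcription factors of liver identity, 15 were detected, with a median of 7.51 CPM per kb. CEBPA had 113, 114 and 119 CPM and HNF4A, a nuclear receptor that keeps hepatocytes differentiated, had 90.4, 127 and 137. NR1I3, the xenobiotic receptor CAR, was at 0 in all libraries, and NR1I2, the xenobiotic receptor PXR, had 15, 7 and 11 counts.

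The metabolic enzymes of mature hepatocytes were mostly below detection. Of 18 cytochrome P450 and conjugation genes, 3 were detected, CYP1A1, CYP3A5 and CYP27A1, with a median of 2.47 CPM per kb. CYP1A1, which oxidises aromatic hydrocarbons, had 9.14, 12.7 and 15.8 CPM. CYP3A4, the main drug-metabolising P450 of adult liver, had 0, 0 and 3 counts, and CYP1A2, CYP2A6, CYP2D6, CYP7A1 and CYP8B1 were at 0. These values lie at the limit that a count of 0 allows at this depth, so absence of these RNAs was not shown.

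The urea cycle and amino acid enzymes were represented by 4 of 12 genes, among them ASL, ASS1 and NAGS. ASL, which splits argininosuccinate, had 80.7, 80.7 and 66.1 CPM. CPS1, the entry enzyme of the urea cycle, had 16, 23 and 12 counts and OTC had 0, 2 and 1. Of 10 gluconeogenesis and glycogen genes, 3 were detected, PC, PCK2 and PYGL. PC, the mitochondrial pyruvate carboxylase, had 257, 255 and 222 exon CPM, while PCK1, G6PC1 and FBP1 had at most 4 counts in any library.

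Genes of fetal liver and hepatoma were detected in 11 of 13 cases, with a median of 31.6 CPM per kb. IGF2, a fetal growth factor, had 584, 517 and 547 CPM, and IGF2BP1, an RNA-binding protein of fetal tissues, 292, 249 and 371. KRT8, a keratin of simple epithelia, had 306, 274 and 422. The latter pair was highest in replicate 3. H19, which neighbours IGF2 and is imprinted in the opposite way, was at 0 in all 3 libraries, and DLK1 had 2, 3 and 5 counts. MDH2 itself had 60.8, 68.4 and 65.2 CPM in exons and 20.2, 19 and 20.6 in introns.

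**Figure D2:**
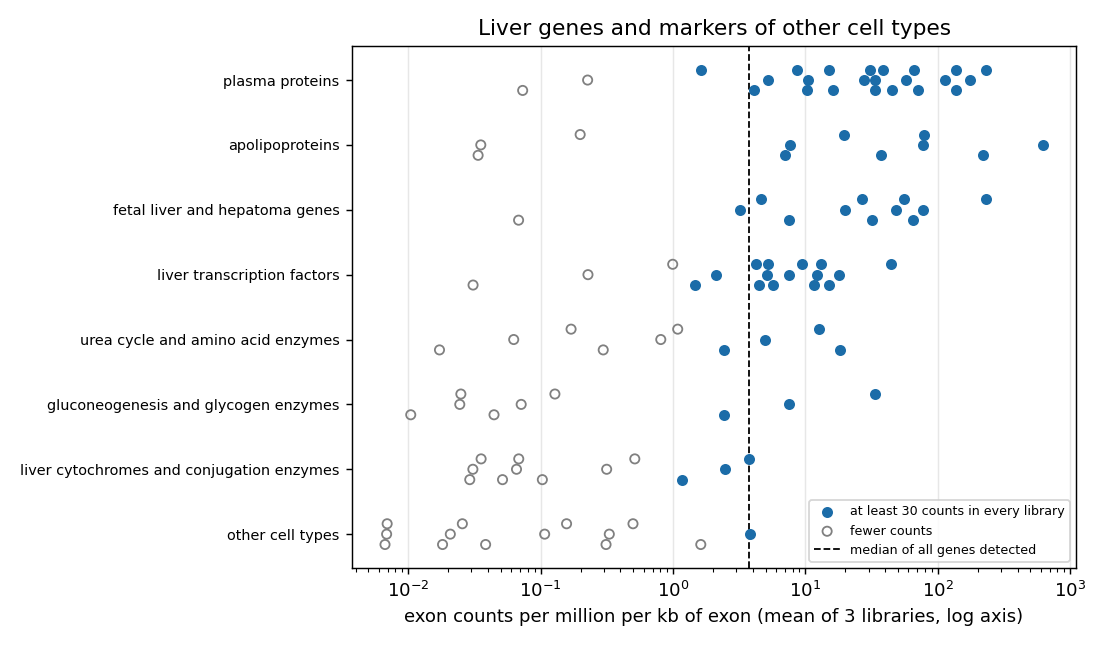
Exon CPM per kb of exon, as the mean of the 3 SMI libraries on a log axis, for each member of 7 liver gene lists and of a list of other cell types that had counts. Filled points had at least 30 counts in every library, open points fewer, and the dashed line is the median of all genes detected, 3.75. Plasma proteins and apolipoproteins lie mostly above the line, and the cytochromes and the markers of other cell types mostly below it.

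The 3 libraries differed most in a set of genes in which replicate 3 stood apart. Among 4956 genes with at least 20 exon CPM and 30 counts in each library, the 20 with the largest coefficient of variation had 18 that were lowest in replicate 3 and 2 that were highest there. Of the 18 with 30 intron counts in each library, all 18 moved the same way in introns. ASNS, asparagine synthetase, had 62.8, 106 and 10.6 CPM in exons and 34.2, 39.2 and 3.58 in introns. HERPUD1, which serves degradation at the endoplasmic reticulum, had 68.6, 120 and 12 in exons and 43.6, 57.8 and 8.38 in introns. STC2, stanniocalcin, had 90.8, 122 and 18.6 in exons. In these genes replicate 3 was far below the other libraries, in exons and in introns where both were counted. TICRR, which serves the start of DNA replication, went the other way, with 22.9, 15.5 and 57.1 CPM in exons and 36.8, 16.1 and 74.7 in introns.

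These genes were seen first, and 2 lists of textbook genes were then drawn up to describe the pattern, so their counts are a description with no test. Of 47 genes induced by amino acid shortage or endoplasmic reticulum stress, many of them targets of the factor ATF4, 39 were detected in exons and 38 of them were lowest in replicate 3, beside 37.2% of all genes detected. ATF5 was the exception. The list includes genes that were seen first, among them ASNS, HERPUD1 and STC2, so their place in this count was fixed beforehand. The median log2 difference of replicate 3 from the mean of the others was -1.42, beside -0.01 for all genes. In introns, 34 were detected, all 34 were lowest in replicate 3, and the median was -1.24, beside 0.03. The cystine transporter SLC7A11 had 111, 137 and 22.8 exon CPM, the folate enzyme MTHFD2 126, 191 and 50.1, and the glycyl-tRNA synthetase GARS1 102, 173 and 51.4. ATF4 itself had 142, 162 and 90.2.

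Of 53 genes of DNA replication and mitosis, 51 were detected in exons and 50 of them were highest in replicate 3, beside 37.5% of all genes detected. CDC25C was the exception. Their median log2 difference was 0.93 in exons and 1.00 in introns, where 42 of 43 were highest in replicate 3 and CENPA was the exception. MKI67, the Ki-67 antigen, had 112, 87.7 and 257 CPM, and TOP2A, the topoisomerase of dividing cells, 133, 114 and 238. Replicate 1 lay between the others in 48 of the 51 proliferation genes and in all 39 stress response genes in exons, beside 4884 of all 10226 detected. In introns it lay between in all 43 proliferation genes but in 24 of 34 stress response genes, beside 5008 of 10223. The labels give the 3 libraries the same treatment, and neither the growth state of the cells nor the day of preparation is stated, so the part of either was not tested.

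Some liver genes were lowest in replicate 3. ASS1, the argininosuccinate synthase, had 15.0, 26.5 and 3.06 exon CPM and 55.9, 82.5 and 16.1 intron CPM. PCK2, the mitochondrial phosphoenolpyruvate carboxykinase, is itself a member of the stress list and had 32.7, 54.0 and 6.64 exon CPM and 14.1, 17.4 and 2.15 intron CPM. APOB, AFP and ALB were lowest in replicate 3 too, but by less.

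**Figure D3:**
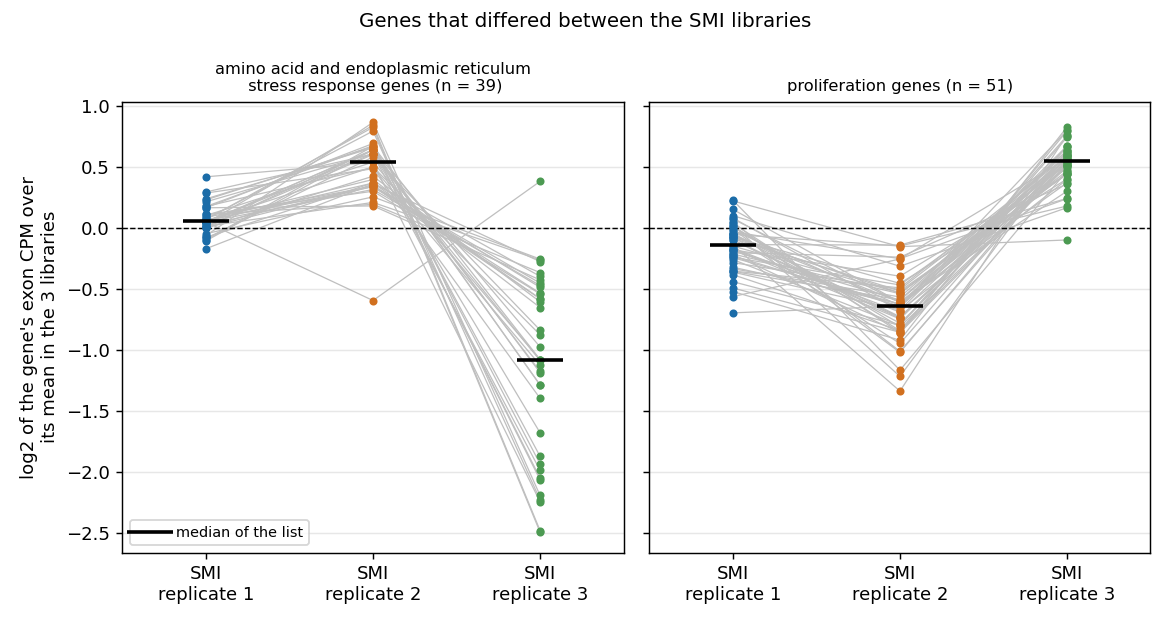
Exon CPM of each gene in each SMI library relative to the gene's mean over the 3 libraries, on a log2 scale, for 39 stress response genes at left and 51 proliferation genes at right. Grey lines join the values of a gene and black bars are medians. In replicate 3, 38 of the 39 stress response genes are at their lowest and 50 of the 51 proliferation genes at their highest.

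The genes with the most intron counts were long genes and hosts of small RNAs. PARD3, a cell polarity scaffold on chromosome 10, led with 3027, 2563 and 3253 CPM in introns, highest in replicate 3 and lowest in replicate 2. RCC1, with its small nucleolar RNAs, came next. PLCB1, a phospholipase C, had 1603 ± 182, PACS1, a sorting protein, 1590 ± 126, FNDC3B 1491 ± 176 and SHANK2 1415 ± 216. STRN3, a subunit of a protein phosphatase complex, had 1269 ± 81.0, and GPC3, the hepatoma marker glypican 3, 1172, 1137 and 1423. The 10 genes with the most counts held 3.01% of all intron counts, against 15.0% for the 10 leading genes in exons.

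Each gene was then compared between its introns and its exons within the libraries. A gene needed at least 30 counts in each library over exons and introns together, so it could enter through its introns alone. The edgeR quasi-likelihood test used the library as a block and library totals as sizes, so a log2 ratio of 0 means as many intron as exon counts, whatever their lengths. Of 12028 genes tested, 4873 (40.5%) were intron-rich and 2857 (23.8%) exon-rich by a ratio of at least 2-fold with an adjusted p no higher than 0.05. The remaining 4298 were called neither way, and the median log2 ratio was 0.51. Scaled by TMM, which centres on the typical gene, 3903 were intron-rich and 3652 exon-rich, and the median was 0.06. Introns are longer than exons, and per length the picture was the reverse. Tested as counts per kb, 319 genes were intron-rich and 9641 exon-rich, and 3130 genes that were intron-rich by counts were exon-rich per kb. The median gene with intron and exon lengths had 4.50 times as many counts per kb of exon as per kb of intron (10749 protein-coding genes).

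The outcome followed intron length in protein-coding genes. Of 584 genes with at most 2 kb of intron, 98.1% were exon-rich. Of 2807 genes with 20 to 50 kb, 27.6% were intron-rich and 12.5% exon-rich. Of 894 genes with over 200 kb, 94.4% were intron-rich and 3 genes were exon-rich. Of the protein-coding genes with this much intron, 595 had at least 30 exon counts in every library. Across 10823 protein-coding genes, the log2 of intron length and the log2 ratio had a Pearson r of 0.79, where genes share libraries and are not independent replicates. Among the genes tested, the median exon density was 6.0 CPM per kb in the first of these classes and 1.04 in the last. The median intron density was 1.31 and 0.283. A gene with more intron reaches 30 counts at a lower density, and the part of this filter in the lower medians was not tested.

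**Figure D4:**
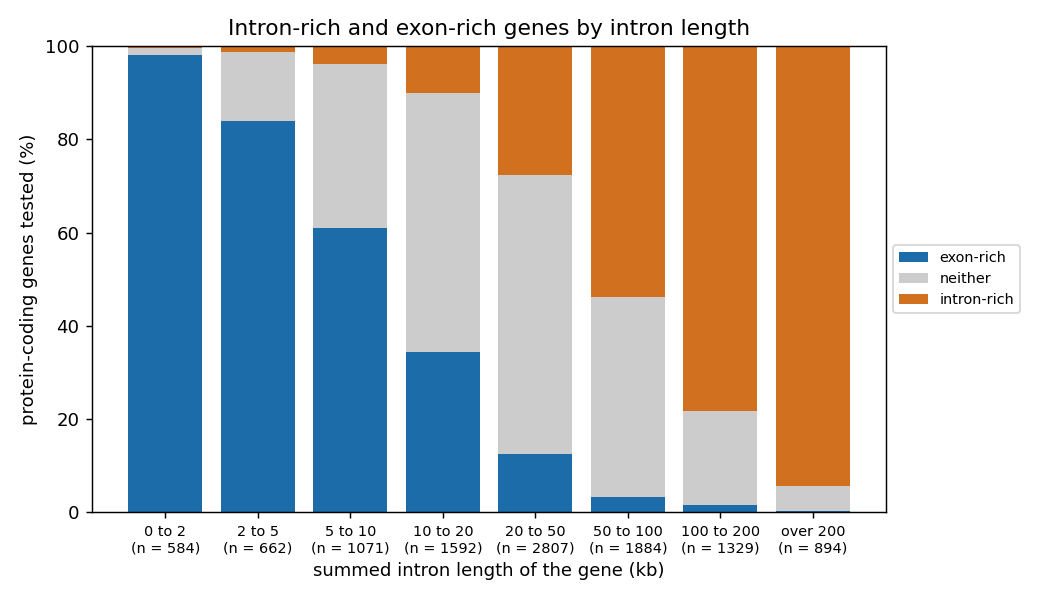
Percent of protein-coding genes tested that were exon-rich (blue), neither (grey) or intron-rich (orange), by the summed intron length of the gene in kb, with the number of genes under each bar. The exon-rich share goes from 98.1% at up to 2 kb to 0.336% above 200 kb, and the intron-rich share from 0.514% to 94.4%.

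Plasma protein genes had more exon than intron counts. Of 22 plasma protein genes tested, 20 were exon-rich and 0 intron-rich, with a median log2 ratio of -2.55 beside 0.51 for all genes tested, and beside 40.5% intron-rich and 23.8% exon-rich overall. Their median intron length was 14.1 kb, and of the protein-coding genes with over 10 and up to 20 kb of intron 34.3% were exon-rich. ALB had 65.8, 72.7 and 81.7 CPM in introns against the exon values above, a log2 ratio of -2.64 ± 0.18 (SE) with an adjusted p of 1.96e-14 from edgeR. While ALB exon counts were highest in replicate 2, its intron counts were highest in replicate 3. AFP had a ratio of -2.43 ± 0.18 (adjusted p = 8.69e-14 from edgeR), with 136, 126 and 144 intron CPM. Of 8 apolipoprotein genes, 7 were exon-rich and 0 intron-rich, with a median of -3.57. The median intron length of these 8 was 2.39 kb, and 83.8% of protein-coding genes with over 2 and up to 5 kb of intron were exon-rich, beside 87.5% of the list. APOA2, with 8.78, 9.84 and 5.11 CPM in introns, had the lowest ratio of those named, -6.23, and APOB, with 243, 188 and 227, had -3.90.

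Of 14 liver transcription factors tested, 5 were intron-rich and 4 exon-rich, shares near the 40.5% and 23.8% of all genes tested, with a median of 0.22 that turned to -0.23 under TMM, and per kb 0 of the 14 were denser in introns. HNF4A had 124, 122 and 159 CPM in introns and a ratio of 0.20 ± 0.15 (adjusted p = 0.216 from edgeR), or -0.25 under TMM. PROX1 had a ratio of -0.20 ± 0.15 (adjusted p = 0.227 from edgeR), and neither was called. Under TMM, PROX1 was at -0.65 with an adjusted p of 1.67e-05 from edgeR and HNF4A had an adjusted p of 0.0321, and both remained under the 2-fold threshold. PC was intron-rich at 1.82, or -1.99 per kb, with 904, 811 and 876 CPM in introns, and lay in the bin of highest intron density described below. Of 4 urea cycle and amino acid genes tested, 2 were intron-rich and 1 exon-rich, while 4 cytochrome genes had 1 of each and 3 gluconeogenesis genes 1 of each. The 4 tested markers of other cell types had 1 intron-rich and 2 exon-rich genes. Of 11 fetal and hepatoma genes, 3 were intron-rich and 8 exon-rich, with a median of -2.43. GPC3 was intron-rich at 2.80 ± 0.20 (adjusted p = 1.16e-13 from edgeR), or -4.29 per kb, and IGF2 exon-rich at -5.66.

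Most ribosomal protein and histone genes tested were exon-rich. Of 69 ribosomal protein genes, 65 (94.2%) were exon-rich and 0 intron-rich, beside 23.8% and 40.5% of all genes tested. Their median log2 ratio was -3.65 and their median intron length 2.41 kb. Of protein-coding genes with over 2 and up to 5 kb of intron, 83.8% were exon-rich. Histone genes mostly lack introns, and of the 11 tested, 10 (90.9%) were exon-rich and 0 intron-rich. Their median intron length was 12.4 kb, and 34.3% of protein-coding genes with over 10 and up to 20 kb of intron were exon-rich. That length comes from a later annotation release than the windows, and whether the earlier release has these introns was not checked. The median intron density of the 11 was 0.161 CPM per kb, and introns without windows would have no counts. The 2 shares may therefore not be comparable. Of 9 small nucleolar RNA host genes tested, 6 (66.7%) were exon-rich and 1 intron-rich, with a median intron length of 5.39 kb. Of protein-coding genes with over 5 and up to 10 kb of intron, 61.0% were exon-rich. Of 14 genes for splicing factors and regulators known for retained introns, 8 were exon-rich and 1 intron-rich, with a median of -1.65. Their median intron length was 8.51 kb, and 61.0% of protein-coding genes with over 5 and up to 10 kb of intron were exon-rich, beside 57.1% of the list and 23.8% of all genes tested. SRSF1 had 150, 129 and 181 CPM in exons and 4.09, 2.57 and 2.35 in introns, while SRSF11, with 113, 132 and 128 in exons and 164, 197 and 135 in introns, was not called, at 0.40 or, under TMM, -0.05.

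Most lncRNA genes tested were intron-rich by counts. Of 1010, 846 (83.8%) were intron-rich and 68 (6.73%) exon-rich, beside 40.5% and 23.8% of all genes tested. Their median exon density was 0.418 CPM per kb, beside 2.69 for all genes tested. A lncRNA with few exon counts could pass the filter only through its introns, so these shares follow in part from the filter. How many lncRNAs would pass on exons alone was not counted. Their median log2 ratio was 3.89, and 625 of them overlapped another gene on their strand. They had a median of 49.4 kb of intron and 3.0 kb of exon. Of protein-coding genes with over 20 and up to 50 kb of intron 27.6% were intron-rich, and with over 50 and up to 100 kb 53.9%. Per kb, 480 of the 1010 were denser in introns than in exons, beside 944 of all 12028 genes tested. LINC-PINT had 10.1, 10.6 and 8.58 CPM in exons and 174, 198 and 134 in introns, a ratio of 4.10, or 0.68 per kb. Of 7 nuclear lncRNAs tested, 5 were intron-rich and 2 exon-rich. KCNQ1OT1, 1 of the 2 exon-rich genes, had 0 intron counts in all 3 libraries, so the size of its ratio, -14.4, is not a measured one. MALAT1, NEAT1 and NORAD had no intron in the annotation used here and were not tested.

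The extremes included overlapping genes and genes with very low counts on 1 side. Among 2435 genes with at least 100 CPM and counts in both features, GNGT1 on chromosome 7 was the most intron-rich, with 2636, 2610 and 2710 intron counts and 3, 2 and 2 exon counts. GATAD2B, a subunit of the NuRD chromatin complex, had 1216, 1085 and 1333 against 2, 2 and 1. LRMDA had 7164, 6885 and 5155 against 26, 29 and 12. Of the 10 most intron-rich genes, 6 were lncRNAs, and all but the lncRNA ENSG00000233358 overlapped another gene on the strand. C9, a complement gene, was among them, and its span in the table is 1.61 times that in the annotation used here. At the other end, RPLP1 had 1697, 2336 and 1998 exon counts against 4, 5 and 2 in introns, RPS16 1838, 2382 and 2091 against 3, 4 and 8, ACTG1 3653, 4431 and 4625 against 9, 15 and 15, and ATF4 1177, 1512 and 883 against 6, 6 and 2. These encode ribosomal proteins, a cytoplasmic actin and a transcription factor, and WDR74, also among the 10, shared windows with RNU2-2P as given above. The span of ACTG1 in the table is 0.54 times that in the annotation used here, so its intron length there may differ.

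Small RNA genes within introns were more frequent among the intron-rich genes than among all. Of the 4873 intron-rich genes, 932 (19.1%) had a small RNA gene in an intron on the same strand, against 1538 (12.8%) of the 12028 tested. The part of intron length in this was not tested.

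Intron density was uneven along the genome. In bins of 2 Mb with at least 500 kb of intron, the median of 1261 bins was 0.268 CPM per kb, with quartiles of 0.120 and 0.448. These bins were examined after their values were seen, and no test was applied. In 77 bins the density was over 3 times the median, and 10 bins, over 5 times, held 6.14% of the intron counts on 0.749% of the intron length. The leading bin, at 66 to 68 Mb of chromosome 11, had 6.05, 5.45 and 5.72 CPM per kb in replicates 1, 2 and 3. That is 21.4 times the median bin, and between 21.3 and 21.8 times in each library, so the libraries differed little. Its exon density was 7.65 times the median of bins.

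The leading bin held several dense genes. PACS1 (chr11:66070272-66244744) had 9.64 intron CPM per kb, KDM2A, a histone demethylase, 7.48, PC 8.41, GRK2, a receptor kinase, 10.4, and RBM4, a splicing factor, 25.5. Not all genes there were dense. MRPL11, a mitochondrial ribosomal protein gene between them, had 0.461 and PPP1CA 0.796. The next bin on the chromosome, at 68 to 70 Mb, was at rank 3 with 14.1 times the median. CHKA, choline kinase, had 13.3, PPP6R3 6.78 and LRP5, a Wnt co-receptor, 4.07 in that bin, while CPT1A, which imports fatty acids into mitochondria, had 0.126 and TESMIN 0.178.

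Other bins were led by 1 or few genes. The bin at 28 to 30 Mb of chromosome 1, 15.9 times the median, held RCC1 with its SNORA73 genes. At 30 to 32 Mb of chromosome 14, 9.98 times the median, STRN3 had 9.95 and SCFD1 6.48 CPM per kb. At 34 to 36 Mb of chromosome 10, 9.85 times the median, PARD3 had 4.22, CUL2 1.93 and CCNY 0.277. Bins on chromosomes 7, 22, 16, 3 and 20 made up the rest of the 10. Gene copy number in these cells was not measured here, and its part in the density was not tested.

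**Figure D5:**
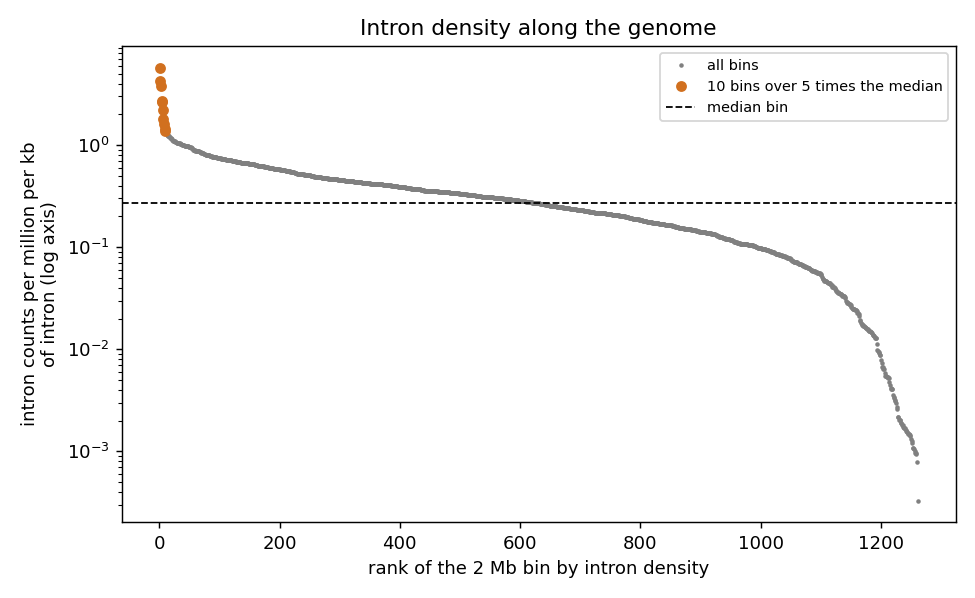
Intron CPM per kb of intron, on a log axis, of 1261 bins of 2 Mb ordered by rank, as means of the 3 SMI libraries. Orange points are the 10 bins over 5 times the median and the dashed line is the median bin, 0.268. The leading bin is at 5.74 and the tenth at 1.39.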

How the data were processed

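The data were 3 SMI eCLIP libraries of Huh7 cells. The authors trimmed reads with cutadapt and aligned them with STAR to GRCh38, discarded reads with more than 10 alignments, collapsed PCR duplicates by their molecular identifiers, and called the base before each alignment start cross-linked. They deposited raw counts of these bases per 50 nt window (step 20 nt) from htseq-clip, on GENCODE v23 with tRNA genes included. Authors' comparisons were not used, and 0 columns were left unassigned.

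Counts of the 3 SMI columns were summed per gene over exon and intron windows and divided by the library total to give CPM. Of 34950 Ensembl identifiers, 33752 (96.6%) matched GENCODE v44, which gave names, lengths and positions. Of 359 numbered tRNA identifiers, 1 was dropped as a mitochondrial duplicate. Of the 12028 genes tested, 1268 (10.5%) had a span that differed by over 10% between the releases. Intron against exon counts were tested for genes with an intron and at least 30 counts in each library with edgeR 4.0.16 in R 4.3.3 (quasi-likelihood, two-sided, library as block, Benjamini-Hochberg). On simulated data of 11769 genes, 99% of the genes changed 4-fold and 100% of those changed 8-fold were recovered, with 2 false calls. Alternatives were 1 window in 3, TMM, DESeq2 1.42.0, other count filters, no block, per-kb offsets, genes without overlap, a ratio of 4-fold, and leaving out each library. Genes were named as the 10 with the most exon and intron counts, the 3 leading each RNA class, the 10 extremes of each side with at least 100 CPM, the 4 highest and the lowest detected of each list, MDH2 and ALB. Others were named after their values were seen. Some genes and sequences are not reported here. Tables and plots used Python 3.11.15, pandas 2.3.3 and matplotlib 3.10.9. The members and lists were chosen with earlier results of these data known. Each pair of libraries differed by more than sampling noise, with a chi-square of 8.29 to 22.0 per degree of freedom.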

Additional observations from a re-analysis of the deposited data

How the results depend on the processing

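The library was part of the design as a block, since exons and introns of a library come from the same RNA. With no replicate block, 4840 genes were intron-rich and 2826 exon-rich, against 4873 and 2857, and 4829 and 2816 of the same genes remained. TMM centres on the typical gene, moved the median log2 ratio from 0.51 to 0.06 and gave 3903 intron-rich and 3652 exon-rich genes. Per kb, the counts were 319 and 9641, and ENSG00000228222 reversed to -0.46, GPC3 to -4.29, HNF4A to -2.52, PC to -1.99 and SRSF11 to -1.80, while PROX1 went to -2.67. HNF4A reversed to -0.25 under TMM and DESeq2's size factors, and SRSF11 to -0.0507 and -0.0523. Genes without overlap gave 2127 intron-rich of 6940 tested. At a log2 ratio of at least 2, 2916 and 1593 were called. Leaving out each library gave 4752 to 5049 intron-rich and 2711 to 2931 exon-rich genes.

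The intron share was 45.7% in genes without overlap. Without mitochondrial genes, mRNA exons held 36.4% and lncRNA introns 4.33%. The leading bin, by alternatives chosen after seeing the data, was 22.5 times the median in genes without overlap, 16.0 times in bins of 5 Mb and 18.2 times in genes of like span in both releases. With 1 window in 3, 0 cytochromes, 2 urea cycle and amino acid genes and 0 markers of other cell types were detected. With a minimum of 10 counts, the last pair of lists had 7 and 5. Leaving out each library gave 1 to 2 markers of other cell types, with 2 without SMI replicate 1. The cause was not tested beyond the fewer genes or counts that an alternative leaves. The other 95 recomputed counts, shares and densities lay within 1.5 times, or 1 SD, of the reported value. Depth limits genes under 30 counts, and shared windows limit overlapping genes.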
